A study of Mus musculus with 9 samples.

Results

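The transcriptome of brains from mice with intracerebral haemorrhage (ICH, bleeding into the brain) that had been given pterostilbene (PTE) was set against that of brains from sham mice. All genes with an FPKM (a level per transcript length and library total) of at least 1 in at least 3 of these 6 libraries were taken, which were 14447 of the 36346 genes listed. The 3 sham and the 3 ICH+PTE libraries each came from a different mouse, which makes 6 of the 9 libraries of the series. The mice were C57BL/6, carried no engineered allele and were sampled 72 h after the procedure. The sham mice had the control treatment, and the ICH+PTE mice had the haemorrhage together with pterostilbene. A group of 3 mice with ICH and no pterostilbene at the same time did not enter the test, and its values are given beside the others only for orientation. The labels name the tissue only as brain, and the way the haemorrhage was made, the dose and route of pterostilbene, the vehicle, the animals' age and the part of the brain taken could not be learned from the labels used here. No group had sham surgery with pterostilbene, so the effects of the haemorrhage and of pterostilbene cannot be told apart in this comparison.

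Pterostilbene is a plant stilbenoid, a dimethyl ether of resveratrol, studied as an antioxidant that can act through the transcription factor NRF2. In intracerebral haemorrhage, blood spilled into the tissue releases haem and iron, resident microglia and astrocytes react, and monocytes and neutrophils enter from the blood. The haem oxygenase encoded by Hmox1 breaks down haem, ferritin stores the iron, and astrocytes turn on an acute-phase programme in which STAT3 is a main regulator.

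Most tested genes listed for reactive astrocytes, STAT3 signalling, infiltrating monocytes, border-associated macrophages and the glucocorticoid response were higher in ICH+PTE than in sham. Most tested genes of striatal projection neurons and of neuronal activity were lower. Of the 14447 genes, 1184 (8.2%) were higher and 1357 (9.39%) were lower in ICH+PTE at a limma adjusted p under 0.05, together 2541 (17.6%). A difference of at least 2-fold in addition was met by 445 higher genes (3.08%) and 278 lower genes (1.92%). The 3 values of each group did not overlap in 5577 genes (38.6%). Genes that lay under 1 in every library of a group were tested only because the other group reached 1: 252 did so in sham, of which 172 were higher, and 107 in ICH+PTE, of which 74 were lower. The plot of all genes against their level shows the largest rises and falls. With TPM scaling in place of FPKM, 850 genes were higher and 2150 lower, so that the share of higher among called genes went from 46.6% to 28.3%, and the median difference of all genes went from -0.04 to -0.18. Leaving out 1 library at a time gave between 549 and 1300 higher and between 556 and 1347 lower genes, and 483 of the 1184 rises and 476 of the 1357 falls kept their call whichever library was left out. The counts moved most without sham replicate 3 (549 higher, 556 lower), and by over 1.5 times also without sham replicate 1 (762 and 770), sham replicate 2 (657 and 626) and ICH+PTE replicate 2 (704 and 868).

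**Figure D1:**
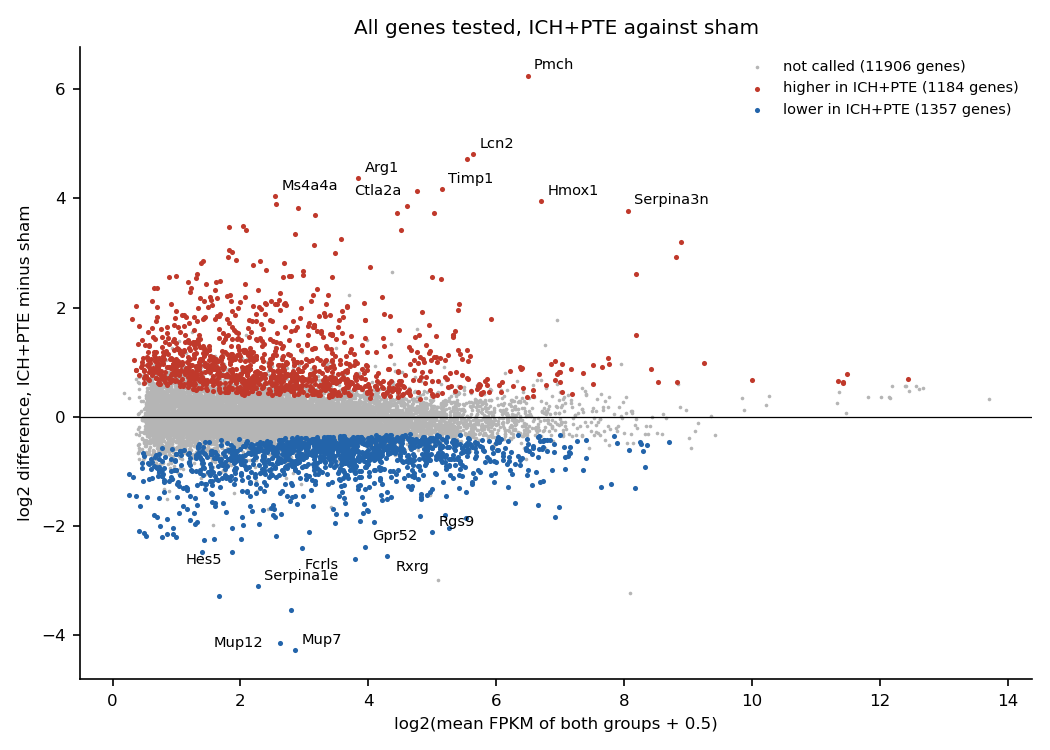
Each point is 1 of the 14447 genes tested, with the log2 of its mean FPKM in both groups plus 0.5 on the horizontal axis and the difference of log2(FPKM + 0.5), ICH+PTE minus sham, on the vertical axis. The 1184 higher genes are red, the 1357 lower genes are blue, and Pmch and Lcn2 lie highest and Mup7 and Mup12 lowest among the labelled genes.

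The libraries of a group were alike, with correlations of log2 values of 0.975 to 0.986 among sham and 0.959 to 0.974 among ICH+PTE libraries, against 0.908 to 0.947 between the groups. The first principal component, with 60.8% of the variance, separated the groups, and on the second, with 16.8%, ICH+PTE replicate 1 lay at 32.9 and the other 5 libraries between -18.4 and 3.6. Without that replicate 1300 genes were higher and 1347 lower. The share of summed FPKM from the mitochondrial genome ranged over 21.7% to 22.9% in sham and 25.5% to 28.9% in ICH+PTE libraries. Haemoglobin transcripts made up 0.092% in ICH+PTE replicate 3 and at most 0.011% in the other 5. All libraries expressed pan-neuronal genes, with a summed FPKM of 22 such genes between 1344 and 1825. Read depth is not known from FPKM values, so no counting interval can be given. Values below are mean FPKM ± SD over 3 mice, differences are of log2(FPKM + 0.5) ± standard error, and adjusted p-values come from the limma fit over all 14447 genes.

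The genes named first are those at both ends, 15 rises and 15 falls of the largest size, and there Lcn2 followed Pmch among the rises. Lcn2 (chromosome 2, 32384633 to 32387797, minus strand), which encodes the iron-siderophore binding protein lipocalin 2, had an FPKM of 0.958, 3.02 and 7.07 in the 3 sham libraries and of 100.2, 103 and 80.9 in ICH+PTE. Every ICH+PTE value was far above every sham value. Its difference was 4.81 ± 0.49 (adjusted p 0.00104), and the mean in ICH was 88.3 ± 17. Serpina3n (chromosome 12, 104406729 to 104414329, plus strand), an acute-phase serine protease inhibitor, went from 37.9 ± 17.8 to 494 ± 43.2 (3.78 ± 0.27, adjusted p 0.000385), and its mean in ICH was 529.8 ± 23.2. Timp1, an inhibitor of matrix metalloproteases, had 1.24, 6.32 and 3.57 in sham and 49.6, 78.4 and 71.7 in ICH+PTE. These groups did not overlap either, and the difference was 4.18 ± 0.43 (adjusted p 0.00104).

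All 3 genes belong to the reactive astrocyte list, which had 20 genes, 19 of them tested. Of these 18 were higher, none was lower and Cxcl10, an interferon-induced chemokine, was not called (0.55 ± 0.28, adjusted p 0.206). Among the 18, Steap4 and Cd109 were under 1 in every sham library and were tested only through ICH+PTE. Cd14 and Cp, also among the 18, are counted again below, Cd14 with infiltrating monocytes and Cp with haem and iron handling. The median difference of the tested members was 1.87, against -0.04 over all genes, and 17 of the 18 kept their call whichever library was left out. In whole tissue, fewer or more cells of a type and less or more RNA per cell cannot be told apart. Gfap, the intermediate filament of astrocytes, rose from 154 ± 60.0 to 425 ± 110.3 (1.50 ± 0.27, adjusted p 0.00937), and Vim, another intermediate filament, from 27.1 ± 12.4 to 93.4 ± 29.8 (1.80 ± 0.32, adjusted p 0.0084). Tgm1, a transglutaminase, rose by 3.87 ± 0.60 (adjusted p 0.00511), Emp1, an epithelial membrane protein, by 2.68 ± 0.30 (adjusted p 0.0013), and Cd44, the hyaluronan receptor, by 2.33 ± 0.20 (adjusted p 0.000573). Hspb1, a small heat shock protein, had 6.58, 10.7 and 8.42 in sham, 33.9, 18.9 and 18.2 in ICH and 67, 61.6 and 33.9 in ICH+PTE. Its ICH+PTE values were all above the sham values, and ICH+PTE replicate 3 was the lowest of its group. Both Gfap and Vim lost their call when no filter on low values was set (adjusted p 0.0631 and 0.0582). The homeostatic astrocyte genes were mixed. Of 13, Gjb6, a connexin, Aldh1l1 and Sox9 were higher, Slc1a2, the main glutamate transporter, was lower (-0.64 ± 0.15, adjusted p 0.0245), and the others were not called. Of these 4 calls, only that of Gjb6 was kept whichever library was left out. The Slc1a2 call was lost without sham replicate 2 (adjusted p 0.0808), sham replicate 3 (0.089), ICH+PTE replicate 2 (0.0603) or ICH+PTE replicate 3 (0.0612).

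**Figure D2:**
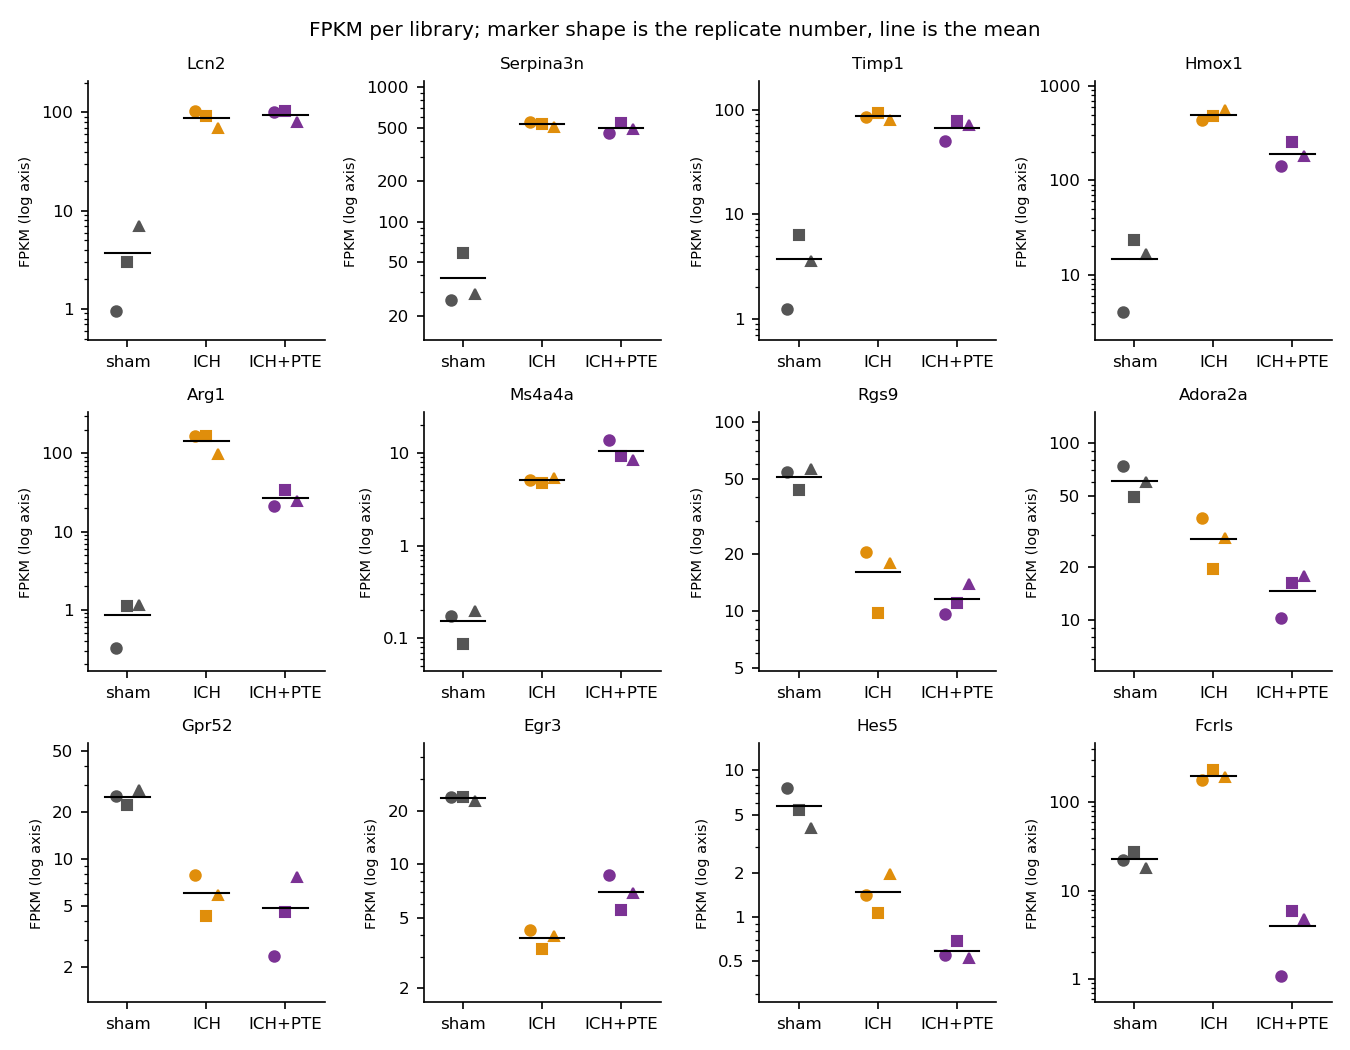
FPKM of 12 genes in each of the 9 libraries on log axes, by group; the marker shape gives the replicate number and the line the mean of 3 mice. For Lcn2, Serpina3n, Timp1, Hmox1, Arg1 and Ms4a4a every ICH+PTE library lies above every sham library, and for Rgs9, Adora2a, Gpr52, Egr3, Hes5 and Fcrls every one lies below.

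Interleukin-6 type cytokines signal through receptors that activate STAT3. The ligands Il6, Osm and Lif were below the filter, and Cntf was higher, a call lost without ICH+PTE replicate 1 (adjusted p 0.0554), 2 (0.0515) or 3 (0.0592). Of the 13 tested genes of the interleukin-6 and STAT3 list 8 were higher and none was lower, with a median of 1.24. Among receptors, Osmr, which binds oncostatin M, rose by 1.39 ± 0.22 (adjusted p 0.0052). Il4ra, on the list but a receptor chain for interleukin-4 that signals mainly through STAT6, rose by 2.08 ± 0.16 (adjusted p 0.000497). Stat3 itself had 5.2, 6.78 and 5.65 in sham and 14.8, 14.9 and 13.7 in ICH+PTE. The ICH+PTE values were close to each other and well above all sham values, and the difference was 1.24 ± 0.12 (adjusted p 0.000953). The STAT3 target and feedback inhibitor Socs3 rose from 1.66 ± 0.696 to 13.2 ± 4.33 (2.67 ± 0.31, adjusted p 0.00163), and Cebpd, a transcription factor of the acute phase, from 1.63 ± 0.44 to 9.67 ± 1.79 (2.26 ± 0.20, adjusted p 0.00063). The shared receptor chains Il6st and Lifr and the target genes Pim1, Junb and Cish were not called.

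A pair of promoters of the largest rises is shown because both hold a match to the core of glucocorticoid receptor sites, which most of the other large rises do not. RefSeq promoters (GRCm38.p6), from 250 bases before to 50 bases after the start, were available for 12 of the 15 largest rises. The palindrome ACANNNTGT, which reads the same on both strands, was in 4 of these 12 (Lcn2, Serpina3n, Ctla2a and Ms4a6c) and in 6.9% of all 27025 promoters. The palindrome TTCNNNGAA, the core of STAT sites, was in 3 of the 12 and in 4 of 17 reactive astrocyte promoters, against 8.47% of all. Each match is a description of letters and not a measured site. Capitals mark the ACANNNTGT match, which begins 152 bases before the start in Lcn2 (chr2:32387690-32387989, minus strand) and 76 bases before it in Serpina3n (chr12:104406458-104406757, plus strand).
Lcn2: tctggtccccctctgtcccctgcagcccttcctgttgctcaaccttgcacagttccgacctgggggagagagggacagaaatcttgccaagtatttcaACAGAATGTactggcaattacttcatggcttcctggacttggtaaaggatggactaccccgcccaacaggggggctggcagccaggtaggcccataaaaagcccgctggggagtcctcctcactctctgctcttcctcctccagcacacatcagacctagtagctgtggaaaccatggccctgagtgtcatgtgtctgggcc
Serpina3n: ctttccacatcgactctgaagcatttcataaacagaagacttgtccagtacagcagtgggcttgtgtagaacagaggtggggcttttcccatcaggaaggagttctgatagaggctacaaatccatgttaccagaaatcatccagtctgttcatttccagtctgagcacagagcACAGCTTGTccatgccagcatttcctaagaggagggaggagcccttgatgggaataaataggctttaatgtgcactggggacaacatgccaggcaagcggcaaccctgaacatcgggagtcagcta

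Most tested genes listed for monocytes and macrophages that enter or border the brain were higher. Of 14 infiltrating monocyte genes 10 were tested, 9 were higher and none was lower (median 1.60). The call was kept whichever library was left out in 8 of the 9. Below the filter were Ccr2, Ly6c2, Ms4a7 and Plac8. Their means were 0.109, 0.33, 0.273 and 0.158 in sham and 0.914, 0.61, 0.533 and 0.667 in ICH+PTE. Arg1, arginase 1, had 0.326, 1.13 and 1.14 in sham, 167, 165 and 97.3 in ICH and 21.5, 34.4 and 24.7 in ICH+PTE. All ICH+PTE values lay above sham and below ICH, and the difference from sham was 4.37 ± 0.29 (adjusted p 0.000329). Ms4a6c rose by 3.70 ± 0.22 (adjusted p 0.000227), Chil3, a chitinase-like protein of alternatively activated macrophages with the near-identical copy Chil4, by 3.47 ± 0.27 (adjusted p 0.000532), and the scavenger receptor Msr1 by 3.02 ± 0.27 (adjusted p 0.000622). Fcgr1, an Fc receptor, was not called (0.60 ± 0.39, adjusted p 0.32), and was called without ICH+PTE replicate 1 (adjusted p 0.00923), where its value of 2.24 was below all sham values. Of 9 border-associated macrophage genes 5 were tested and all 5 were higher in every leave-one-out fit. Cd163, Lyve1, Siglec1 and Folr2 were below the filter. Their means were 0.697, 0.204, 0.22 and 0.443 in sham and 0.977, 0.715, 0.893 and 0.564 in ICH+PTE, and only in Siglec1 did the groups not overlap. Pf4, platelet factor 4, which these macrophages also express, had 0.485, 1.19 and 0.66 in sham and 12, 16.8 and 8.93 in ICH+PTE (3.35 ± 0.26, adjusted p 0.000532). F13a1, a coagulation factor XIII chain, rose by 3.06 ± 0.24 (adjusted p 0.000527) and Mrc1, the mannose receptor, by 1.62 ± 0.19 (adjusted p 0.00172). In both lists 3 of the tested members were under 1 in every sham library and were tested only because they reached 1 in ICH+PTE.

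Of 14 neutrophil genes only 4 were tested, and Csf3r (-0.04 ± 0.21, adjusted p 0.909) and Hp (0.07 ± 0.42, adjusted p 0.928) were not called. The others were below the filter and received no test. Among them Mmp8, Mmp9, Cxcr2 and Retnlg had means of 0.0535, 0.19, 0.0213 and 0.0308 in sham. In ICH+PTE these were 1.32, 1.23, 0.835 and 1.55, without overlap of the groups. Ly6g did not overlap either but was at most 0.0614, and Ngp, Camp, Ltf, Elane and Mpo overlapped. The calprotectin subunits S100a8 and S100a9 were higher, both under 1 in every sham library and tested only through ICH+PTE, S100a9 with 0.46, 0.152 and 0.811 in sham and 15.8, 16.9 and 7.89 in ICH+PTE (3.83 ± 0.33, adjusted p 0.000573). The other largest rises tied to leukocytes or secreted proteins were Ms4a4a, with 0.175, 0.0875 and 0.199 in sham, 5.13, 4.7 and 5.4 in ICH and 13.7, 9.2 and 8.47 in ICH+PTE (4.04 ± 0.20, adjusted p 9.52e-05), and Chil1, the chitinase-like protein YKL-40 (3.73 ± 0.24, adjusted p 0.000329). In Ms4a4a the 3 groups did not overlap and the ICH+PTE values were the highest. Ctla2a, a cysteine protease inhibitor with the close copy Ctla2b, rose by 4.14 ± 0.47 (adjusted p 0.00147) with an uneven ICH+PTE group of 97.7, 35.9 and 20.1. Rbp7, a retinol-binding protein, rose by 3.90 ± 0.33 (adjusted p 0.000573). Ms4a4a and Rbp7 were tested only through ICH+PTE too. Of 12 lymphocyte genes only Cd4 passed the filter, and it was lower (-1.10 ± 0.16, adjusted p 0.0038). Its sham mean was 7.57, while those of the T cell genes Cd3e, Cd3d and Cd3g were 0.0276, 0.0168 and 0.0773. Trac, another T cell gene, had a mean of 0.647 in sham and 1.2 in ICH+PTE. Cd4 alone is therefore no measure of lymphocytes here, and the source of its transcripts was not tested.

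Of 13 homeostatic microglia genes none was higher, 3 were lower, against 9.39% lower of all genes, and 10 were not called (median -0.21). Fcrls, an Fc receptor-like protein of resting microglia, had 22.4, 27.6 and 18.2 in sham, 178, 233 and 192 in ICH and 1.09, 5.97 and 4.78 in ICH+PTE. ICH+PTE replicate 1 was the lowest library, all 3 were below sham, and the ICH libraries were above it. The difference from sham was -2.60 ± 0.47 (adjusted p 0.00863), and with no filter on low values the adjusted p was 0.061. P2ry12, the purinergic receptor of microglial processes, fell by 0.61 on the log2 scale (adjusted p 0.0389). Its call was lost without sham replicate 1 (adjusted p 0.0876), 2 (0.137) or 3 (0.0734), and without ICH+PTE replicate 1 or 3 (0.0527 each). Siglech fell by 1.07 on the log2 scale and its call was lost without sham replicate 1 (0.0537), 2 (0.0712) or 3 (0.0654). Tmem119 (-0.60 ± 0.26, adjusted p 0.152) and the fractalkine receptor Cx3cr1 (0.03 ± 0.39, adjusted p 0.964) were not called. Without ICH+PTE replicate 1, which held the lowest ICH+PTE value of each of these 5 genes, 4 members were higher, while without sham replicate 1, 2 or 3 only 1 was lower.

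Of 19 genes of phagocytic microglia and macrophages 17 were tested and 4 were higher, namely the galectin Lgals3 (2.01 ± 0.35, adjusted p 0.0074), the lysosomal protein Cd68, the receptor kinase Axl and the tetraspanin Cd63. Only the call of Lgals3 was kept whichever library was left out, and with no filter on low values its adjusted p was 0.0542. The call of Cd63 was lost without sham replicate 3 (0.058), that of Axl likewise (0.0606), and that of Cd68 without sham replicate 1 (0.0703), 2 (0.0572) or 3 (0.107) or ICH+PTE replicate 2 (0.0763) or 3 (0.0761). Spp1, osteopontin, had 32.6, 89.4 and 35.8 in sham, 4510.5, 6272 and 5015 in ICH and 68.2, 307 and 207 in ICH+PTE. ICH+PTE replicate 1 lay within the sham range and the other replicates above it, so the groups overlapped and Spp1 was not called (1.78 ± 0.56, adjusted p 0.0616). It was called under 6 of the 18 alternatives, among them without ICH+PTE replicate 1 (0.0125) and without sham replicate 2 (0.0422). The lipid receptor Trem2 (-0.19 ± 0.35, adjusted p 0.742), Gpnmb (0.25 ± 0.45, adjusted p 0.743) and the lysozyme Lyz2 (0.31 ± 0.41, adjusted p 0.633) were not called, with means in ICH of 69.9 ± 5.52, 282 ± 45.5 and 2734 ± 330.0.

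**Figure D3:**
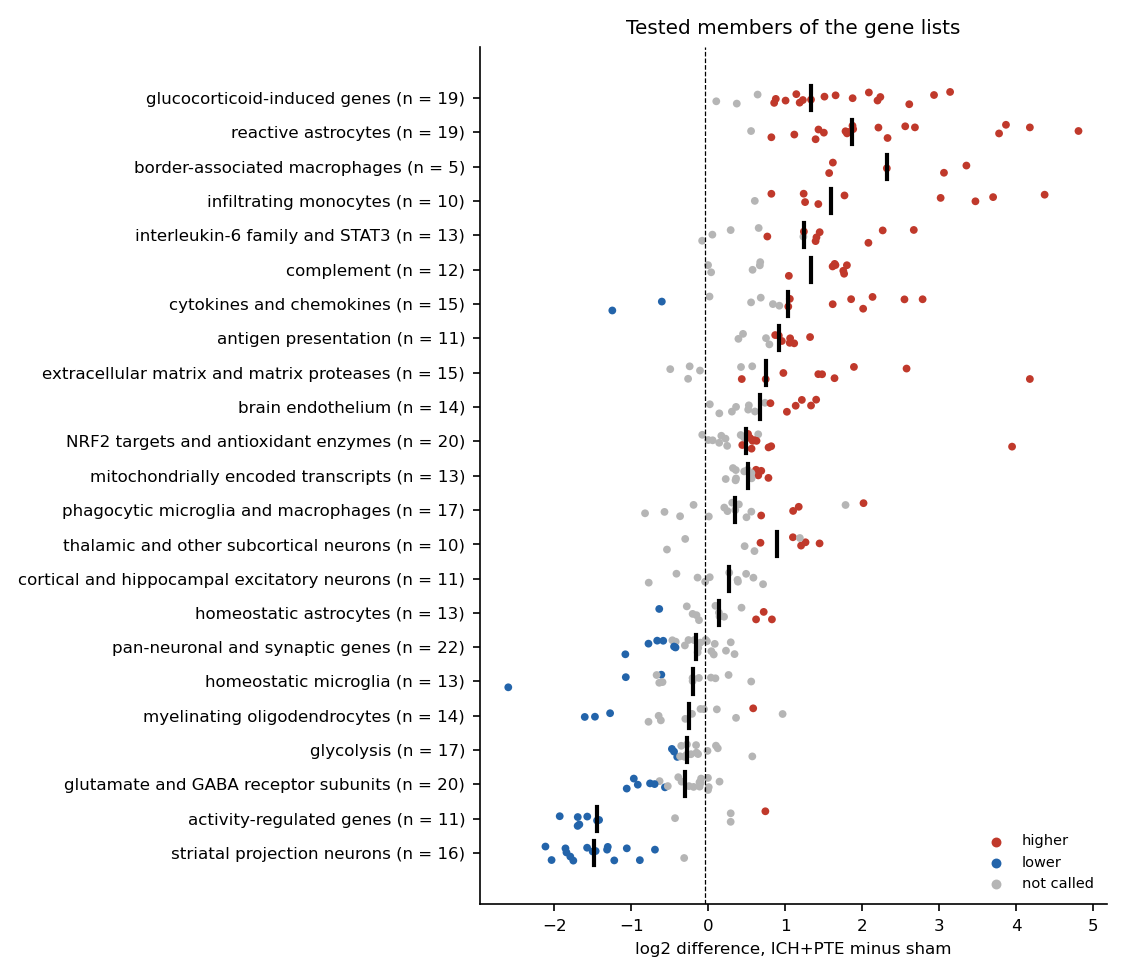
Log2 difference, ICH+PTE minus sham, of each tested member of 23 gene lists, with higher genes in red, lower genes in blue and genes not called in grey; the black bar is the list's median and the dashed line the median of all genes. The striatal (median -1.48) and activity-regulated (-1.45) lists lie to the left, and the border-associated macrophage (2.32), reactive astrocyte (1.87) and glucocorticoid (1.33) lists to the right. The border-associated macrophage median rests on 5 tested genes, 3 of them tested only through ICH+PTE.

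Among 22 cytokine and chemokine genes 15 were tested, 8 were higher and 2 were lower, Cx3cl1 and Cxcl14, the call of Cxcl14 being lost without sham replicate 2 (0.0811), sham replicate 3 (0.0983), ICH+PTE replicate 2 (0.0726) or ICH+PTE replicate 3 (0.07). Of the 8 rises 6 kept their call whichever library was left out. Ccl12 lost it without sham replicate 1, 2 or 3 or ICH+PTE replicate 2 or 3. Tgfb1 lost it without sham replicate 1 or 3 or ICH+PTE replicate 2 or 3. Of the higher genes Ccl2, Ccl5 and Ccl7 were under 1 in every sham library and were tested only through ICH+PTE. Ccl2 had 0.324, 0.716 and 0.68 in sham and 4.83, 13.3 and 4.75 in ICH+PTE, with replicate 2 well above the other ICH+PTE libraries (2.78 ± 0.37, adjusted p 0.00266). Ccl7 rose by 2.55 ± 0.37 (adjusted p 0.00401), Ccl6 by 2.13 ± 0.25 (adjusted p 0.00172) and Ccl5, which attracts T cells and monocytes, by 2.01 ± 0.14 (adjusted p 0.000385). Cx3cl1, the neuronal ligand fractalkine, had 135, 128 and 136 in sham and 54.6, 52.1 and 60.6 in ICH+PTE. Every ICH+PTE value was under every sham value by a wide margin (-1.25 ± 0.10, adjusted p 0.000573). Il1b, Il1a, Il6, Tnf, Cxcl1, Cxcl2 and Cxcl13 were below the filter.

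Of 12 tested complement genes 7 were higher and none was lower (median 1.33). Among these 7, 2 were under 1 in every sham library and were tested only through ICH+PTE. The central component C3 rose from 2.69 ± 0.84 to 9.22 ± 1.32 (1.64 ± 0.21, adjusted p 0.0025), and so did Serping1, the C1 inhibitor (1.76 ± 0.17, adjusted p 0.000817). The C1q chain genes C1qa (0.67 ± 0.22, adjusted p 0.0678), C1qb and C1qc were not called. Of 11 tested antigen presentation genes 7 were higher, with Cd74, the class II invariant chain, at 1.32 ± 0.21 (adjusted p 0.00599) and H2-D1, a class I gene with a close relative in H2-K1, at 1.11 ± 0.19 (adjusted p 0.00739). The class II genes H2-Aa, H2-Ab1 and H2-Eb1 were not called. Of 16 tested interferon-stimulated genes 6 were higher, with 2 without sham replicate 2 and 1 without sham replicate 3 or ICH+PTE replicate 2. Ifitm3, which restricts virus entry, rose by 1.57 ± 0.15 (adjusted p 0.000901). The NF-kappaB list had 4 higher of 13 tested and the inflammasome list 2 of 6, with none lower in either. Among the inflammasome rises, 1 was under 1 in every sham library and was tested only through ICH+PTE.

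Hmox1 (chromosome 8, 75093621 to 75100589, plus strand), the haem oxygenase, had 4.02, 23.3 and 16.4 in sham, 432, 485 and 560.1 in ICH and 142, 254 and 183 in ICH+PTE. The sham values were spread, the lowest ICH+PTE value was still well above the highest of them, and all ICH+PTE values were below all ICH values. The difference from sham was 3.94 ± 0.54 (adjusted p 0.00314). Of 18 tested genes of haem and iron handling 4 were higher, and beside Hmox1 these were Cp, the ferroxidase ceruloplasmin (1.88 ± 0.21, adjusted p 0.00145), and the ferritin chains Fth1 (0.99 ± 0.23, adjusted p 0.0219) and Ftl1 (0.88 ± 0.24, adjusted p 0.0403). The ferritin genes have many processed copies, and both calls depended on single libraries. That of Fth1 was lost without sham replicate 2 (adjusted p 0.0791), sham replicate 3 (0.0778) or ICH+PTE replicate 2 (0.0612), and that of Ftl1 without sham replicate 1 (0.11), 2 (0.0522) or 3 (0.126) or ICH+PTE replicate 2 (0.0785) or 3 (0.0755). The iron exporter Slc40a1 (0.23 ± 0.19, adjusted p 0.44), the transferrin receptor Tfrc (0.28 ± 0.21, adjusted p 0.393) and the haemoglobin binder Hp (0.07 ± 0.42, adjusted p 0.928) were not called.

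Of 20 tested genes of the NRF2 and antioxidant list 10 were higher and none was lower (median 0.49), and the count was 6 without sham replicate 1 or ICH+PTE replicate 2 and 5 without sham replicate 3. Apart from Hmox1 the rises were under 1 on the log2 scale. Gstm1, a glutathione transferase, had 89.8, 94.1 and 87.2 in sham and 169, 164 and 135 in ICH+PTE. The groups were far apart relative to their spread (0.78 ± 0.12, adjusted p 0.00448), and the mean in ICH was 106 ± 8.8. Gsta4, which conjugates lipid peroxidation products, rose by 0.62 ± 0.11 (adjusted p 0.00846) and G6pdx, which supplies NADPH, by 0.59 ± 0.10 (adjusted p 0.00678). Slc7a11, the cystine transporter, rose by 0.82 ± 0.19 (adjusted p 0.0227), a call lost without sham replicate 1 (0.0646) or 3 (0.0665). Nfe2l2, which encodes NRF2 itself (0.65 ± 0.22, adjusted p 0.0735), Nqo1 (0.46 ± 0.14, adjusted p 0.057) and Txnrd1 (0.22 ± 0.11, adjusted p 0.198) were not called. The motif TGACNNNGC of antioxidant response elements, searched on both strands, was in 7 of the 17 RefSeq promoters matched to this list and in 12.5% of all promoters. Of the 7 genes with a match 5 were higher, and of the 10 without 3 were. These shares were not tested against each other. Among the 5, only G6pdx kept its call whichever library was left out. Srxn1 lost it without sham replicate 2 (adjusted p 0.0699) and Gclm without any 1 library. Prdx1 and Me1 each lost it without sham replicate 1 or 3 or ICH+PTE replicate 2 or 3. In the whole list 4 of the 10 rises kept their call whichever library was left out.

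Genes that glucocorticoids induce were higher as a group. Of 19 such genes, all of them tested, 16 were higher and none was lower (median 1.33). Groups did not overlap in 17, against 38.6% of all genes. Among the 16, 1 was under 1 in every sham library and was tested only through ICH+PTE. Without sham replicate 1 the count of higher genes was 13, and with no filter on low values 11. Fkbp5 (chromosome 17, 28399094 to 28517527, minus strand), which encodes a co-chaperone that restrains the glucocorticoid receptor, had 3.28, 4.37 and 4.93 in sham, 8.08, 5.11 and 5.27 in ICH and 13.9, 9.56 and 10.5 in ICH+PTE. All 3 ICH+PTE values were above all values of the other groups, and the difference from sham was 1.33 ± 0.18 (adjusted p 0.00303). Tsc22d3, the glucocorticoid-induced leucine zipper, had 11.4, 13.7 and 16.1 in sham, 17.4, 15.5 and 12.1 in ICH and 25.5, 28.2 and 22.7 in ICH+PTE, in the same order (0.88 ± 0.15, adjusted p 0.00672). Plin4, a lipid droplet protein, had 0.743, 1.06 and 2.43 in sham, 6.77, 1.42 and 1.62 in ICH and 15.6, 12.8 and 17.7 in ICH+PTE (3.14 ± 0.29, adjusted p 0.000729). ICH replicate 1 was the highest of the ICH libraries in all 3 genes.

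Hif3a, an inhibitory hypoxia-inducible factor subunit, rose by 2.23 ± 0.27 (adjusted p 0.00187), Sult1a1, a sulfotransferase, by 1.87 ± 0.23 (adjusted p 0.00219), Arrdc2, an arrestin-domain protein, by 1.65 ± 0.18 (adjusted p 0.00113) and Pdk4, which inhibits pyruvate dehydrogenase, by 1.23 ± 0.15 (adjusted p 0.00172). The metallothionein genes Mt1 and Mt2, whose products bind zinc and copper, lie side by side on chromosome 8. Mt1 had 89, 75.5 and 77.3 in sham and 601, 522 and 381 in ICH+PTE (2.61 ± 0.17, adjusted p 0.000329), and Mt2 had 96.2, 97.8 and 109 in sham and 1003, 824 and 559 in ICH+PTE (2.93 ± 0.20, adjusted p 0.000363). In both, sham values were tight and ICH+PTE replicate 3 was the lowest of its group. Angptl4, a lipoprotein lipase inhibitor, had 15.7, 16.5 and 17.4 in ICH and 5.55, 8.32 and 5.3 in ICH+PTE, all above its sham values (2.20 ± 0.18 against sham, adjusted p 0.000573). The call of Zbtb16, a zinc finger gene (1.14 ± 0.32, adjusted p 0.0424), was lost without sham replicate 1 (0.0836), sham replicate 2 (0.0901), ICH+PTE replicate 1 (0.103) or ICH+PTE replicate 3 (0.0988), and that of Sgk1 without sham replicate 1 (0.0526). The call of Errfi1 was lost without sham replicate 1 (0.0576) or 2 (0.0597). Not called were Dusp1 (0.64 ± 0.21, adjusted p 0.0747), Per1 (0.37 ± 0.26, adjusted p 0.368) and Klf9 (0.10 ± 0.20, adjusted p 0.754).

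**Figure D4:**
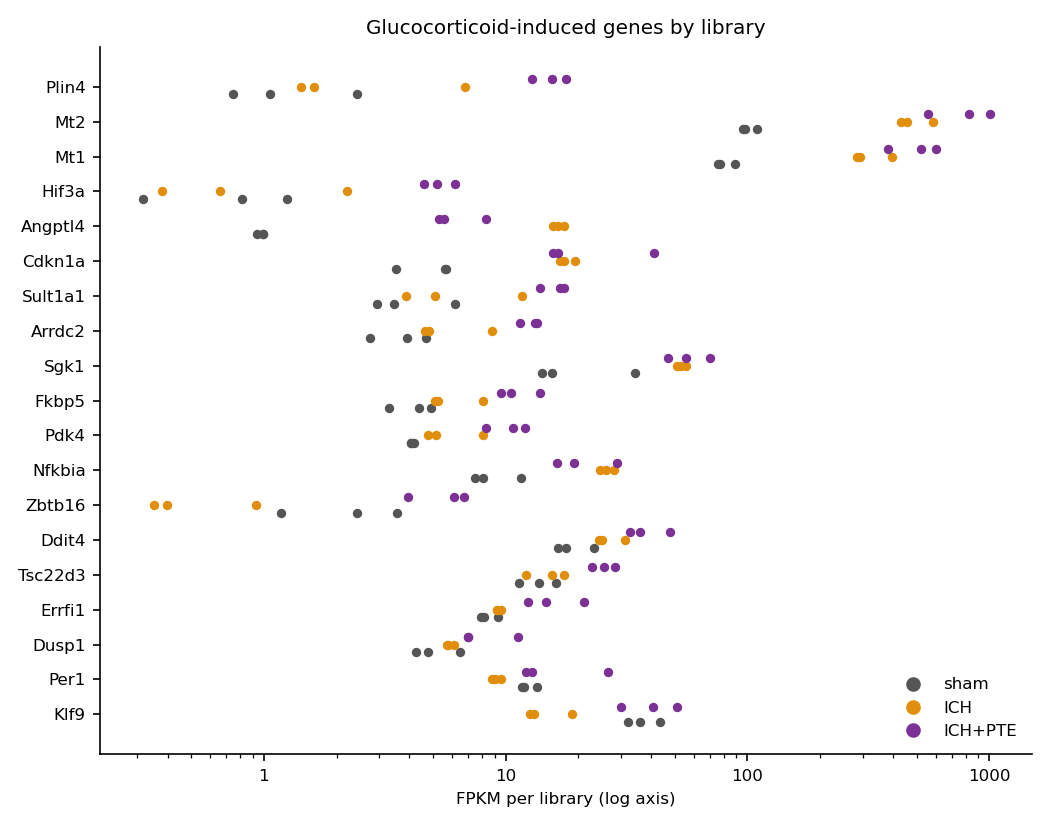
FPKM per library, on a log axis, of the 19 glucocorticoid-induced genes ordered by their difference, with 3 points per group. Sham lies to the left of ICH+PTE without overlap in 17 genes, and for Fkbp5, Tsc22d3, Hif3a and Plin4 all ICH libraries lie below all ICH+PTE libraries.

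The promoters of Mt1 and Mt2 are shown as neighbours with different matches. Of the 17 promoters matched to the glucocorticoid list, Mt1 alone held ACANNNTGT (5.88%, against 6.9% of all promoters). The motif TGACNNNGC was in 4 (23.5%, against 12.5% of all promoters), Mt2 among them. Capitals mark ACANNNTGT, 92 bases before the start, in Mt1 (chr8:94178839-94179138, plus strand), and TGACNNNGC, 79 bases before it, in Mt2 (chr8:94172368-94172667, plus strand).
Mt1: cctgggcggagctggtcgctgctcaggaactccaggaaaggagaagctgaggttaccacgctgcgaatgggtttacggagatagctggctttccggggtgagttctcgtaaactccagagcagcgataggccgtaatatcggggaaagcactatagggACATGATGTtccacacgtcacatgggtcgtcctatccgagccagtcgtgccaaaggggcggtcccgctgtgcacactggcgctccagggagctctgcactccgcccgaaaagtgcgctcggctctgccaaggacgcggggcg
Mt2: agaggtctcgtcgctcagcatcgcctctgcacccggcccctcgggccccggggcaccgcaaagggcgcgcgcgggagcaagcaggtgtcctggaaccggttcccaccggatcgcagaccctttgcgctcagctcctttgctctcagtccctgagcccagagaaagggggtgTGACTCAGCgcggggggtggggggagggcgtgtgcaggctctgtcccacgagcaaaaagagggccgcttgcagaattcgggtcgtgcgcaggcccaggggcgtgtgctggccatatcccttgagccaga

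Genes of striatal projection neurons, the GABA neurons that make up most of the striatum, were lower almost throughout. Of 16 genes, all tested, 15 were lower (median -1.48) and Isl1, a transcription factor of the direct pathway, was not called (-0.32 ± 0.20, adjusted p 0.297). Between 13 and 15 were lower when 1 library at a time was left out. Rgs9, a regulator of dopamine receptor signalling and the gene with the largest fall on this list, had 54.2, 43.8 and 56 in sham, 20.5, 9.71 and 18 in ICH and 9.57, 11.1 and 13.9 in ICH+PTE. Sham did not overlap with either of the other groups, and the difference for ICH+PTE was -2.12 ± 0.16 (adjusted p 0.000462). Adora2a, the adenosine receptor of indirect-pathway neurons, had 73.8, 49.1 and 60.3 in sham, 37.4, 19.4 and 29.1 in ICH and 10.3, 16.1 and 17.6 in ICH+PTE (-2.04 ± 0.22, adjusted p 0.00117). Both pathways were included. The direct-pathway receptor Drd1 fell from 40.8 ± 5.96 to 14.7 ± 4.02 (-1.47 ± 0.20, adjusted p 0.00284) and the indirect-pathway receptor Drd2 from 56.4 ± 7.08 to 16.4 ± 5.07 (-1.79 ± 0.23, adjusted p 0.00223). The neuropeptide genes Tac1 (-1.50 ± 0.21, adjusted p 0.00341), Pdyn (-1.32 ± 0.16, adjusted p 0.00187) and Penk (-1.31 ± 0.19, adjusted p 0.00368) were lower too, as was the adenylyl cyclase Adcy5 (-1.58 ± 0.16, adjusted p 0.00105). The call of Gnal, a G protein subunit, was lost without sham replicate 3 (0.0612), and that of Meis2 without sham replicate 1 (0.064), sham replicate 3 (0.0839) or ICH+PTE replicate 2 (0.0646). The named falls Gpr52, an orphan receptor also enriched in striatum (-2.38 ± 0.32, adjusted p 0.00295), and Rxrg, a retinoid X receptor (-2.56 ± 0.31, adjusted p 0.00195), were not on the list.

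Summed over the 16 striatal genes, the FPKM was 1794, 1325 and 1657 in sham, 984.7, 457.3 and 695.2 in ICH, and 500.2, 617.4 and 673.6 in ICH+PTE. Other regional markers moved as well. The sum of 13 genes of thalamic and other subcortical neurons was 73.3, 69.4 and 55.5 in sham and 98.6, 93.6 and 142.5 in ICH+PTE, without overlap. Of the 10 tested among them 5 were higher, with 3 without sham replicate 2 or ICH+PTE replicate 3, 2 without ICH+PTE replicate 2 and 1 without sham replicate 3. Among the 5, 1 was under 1 in every sham library and was tested only through ICH+PTE. Prkcd, a protein kinase C of thalamic neurons, rose by 1.44 ± 0.18 (adjusted p 0.00192). None of the 11 tested cortical and hippocampal genes was called, while 2 were lower without ICH+PTE replicate 1 and 1 was higher without ICH+PTE replicate 2, with a sum of 94.2 to 120.7 in sham and of 189.6, 86.7 and 102.9 in ICH+PTE. The part of these regional markers in the fall of the striatal genes was not tested.

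Of 10 tested genes of hypothalamic and other neuropeptides 2 were higher, Pmch and Avp, 1 was lower, Sst, which encodes somatostatin (-0.59 ± 0.12, adjusted p 0.0163), and 7 were not called, among them Nts, neurotensin (-0.77 ± 0.24, adjusted p 0.0638). The higher count was 4 without sham replicate 2 and 1 without any other single library, and 2 were lower without sham replicate 1. Pmch, melanin-concentrating hormone, had the largest rise of all genes tested, with 1.52, 0.606 and 0.266 in sham, 2.37, 0.579 and 193 in ICH and 11.2, 330.0 and 193 in ICH+PTE. Its ICH+PTE values were uneven, 1 ICH library was as high, and the difference was 6.25 ± 1.08 (adjusted p 0.00746, and 0.058 with no filter on low values). Avp, vasopressin, rose by 3.73 ± 1.02 (adjusted p 0.0391), with sham replicate 2 at 16.6 and the other sham libraries near 0 or 1. Its call was lost without sham replicate 1 (0.112), sham replicate 3 (0.097), ICH+PTE replicate 1 (0.0625), ICH+PTE replicate 2 (0.103) or ICH+PTE replicate 3 (0.0761). The choroid plexus genes, summed, went from 954.8 in sham replicate 1 to 60.7 in sham replicate 3 and from 404.3 in ICH+PTE replicate 1 to 10.4 in ICH+PTE replicate 2, and none of the 5 tested was called, while 3 were lower without ICH+PTE replicate 1. The choroid plexus sum thus differed widely within both groups.

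**Figure D5:**
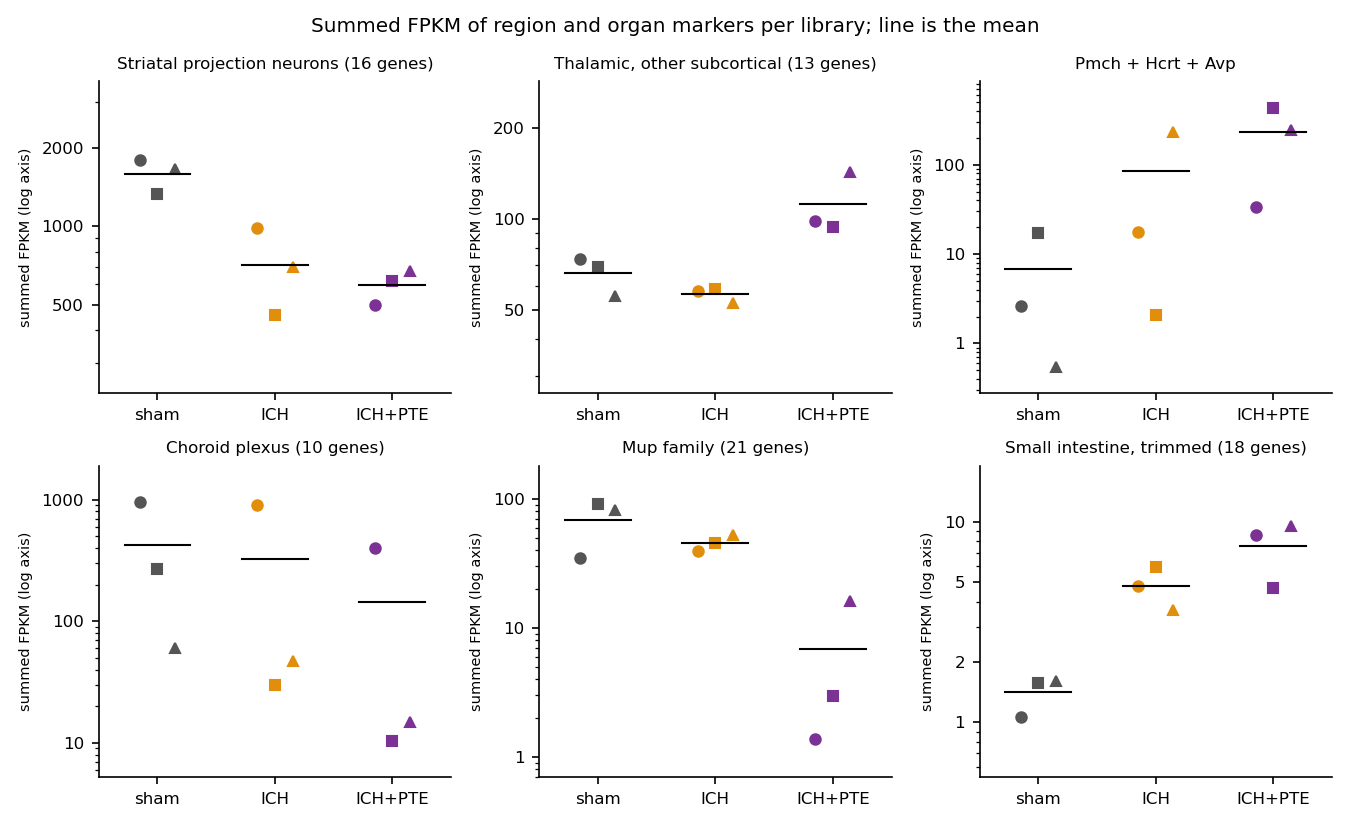
Summed FPKM of markers of brain regions and of other organs in each library on log axes; the marker shape gives the replicate number and the line the mean. The striatal sum is lower in all ICH+PTE than in all sham libraries and the thalamic sum higher, while the choroid plexus sum spans 10.4 to 404.3 within ICH+PTE.

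Activity-regulated genes, which neurons switch on after synaptic input, were mostly lower. Of 11 tested 7 were lower and 1 was higher (median -1.45). Egr3, an early growth response factor, had 23.9, 23.9 and 22.8 in sham, 4.28, 3.33 and 3.96 in ICH and 8.65, 5.49 and 6.9 in ICH+PTE. The ICH+PTE values lay between the other groups without overlap, and the difference from sham was -1.70 ± 0.16 (adjusted p 0.000711). Arc, a synaptic scaling protein, fell by 1.93 (adjusted p 0.00499), Npas4 by 1.57 (adjusted p 0.00457), Homer1, a postsynaptic scaffold, by 1.45 (adjusted p 0.00104) and Egr1 by 1.42 (adjusted p 0.0028) on the log2 scale. The call of Nr4a1, a nuclear receptor, was lost without sham replicate 1 (0.0644), sham replicate 2 (0.0654), ICH+PTE replicate 2 (0.0564) or ICH+PTE replicate 3 (0.052). Fos (0.29 ± 0.35, adjusted p 0.605), Fosb and Junb were not called. Ier2, an immediate early gene of many cell types, was higher (0.74 ± 0.19, adjusted p 0.0345), a call lost without sham replicate 2 (0.0833), sham replicate 3 (0.112), ICH+PTE replicate 1 (0.0729) or ICH+PTE replicate 2 (0.0972).

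Of 22 pan-neuronal and synaptic genes 6 were lower and none was higher (median -0.16). Without sham replicate 1, 2 or 3 or ICH+PTE replicate 2 the count was 3. The call was kept whichever library was left out in Slc32a1, Gad1 and Dlg4. Slc32a1, the vesicular GABA transporter, fell from 59.5 ± 3.59 to 28.1 ± 4.84 (adjusted p 0.00255), Gad1, which makes GABA, from 74.4 ± 2.29 to 43.5 ± 6.89 (adjusted p 0.0063) and Dlg4, the scaffold PSD-95, from 43.3 ± 1.69 to 27.2 ± 2.57 (adjusted p 0.00564). Gad2, which also makes GABA (-0.31 ± 0.21, adjusted p 0.337), the neurofilament genes, Snap25, Syt1, Map2 and Rbfox3 were not called. Of 20 glutamate and GABA receptor subunit genes 6 were lower and none was higher, with Gabrd, the extrasynaptic GABA receptor delta subunit, at -1.06 ± 0.16 (adjusted p 0.00511), with 3 lower without sham replicate 1 and 2 without sham replicate 3. Among the largest falls outside the lists were Hes5, a Notch target of neural progenitors and astrocytes tested only through sham, with 7.64, 5.38 and 4.07 in sham and 0.552, 0.687 and 0.523 in ICH+PTE (-2.47 ± 0.22, adjusted p 0.000622), and Car12, a carbonic anhydrase (-2.25 ± 0.19, adjusted p 0.000573).

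Oligodendrocyte genes were mostly not called. Of 14 myelin genes 3 were lower, 1 was higher, and none of the 4 calls was kept whichever library was left out. Mbp, myelin basic protein, was not called (-0.30 ± 0.25, adjusted p 0.436).

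Part of the vessel and matrix genes were higher. Of 14 brain endothelium genes 6 were higher and none was lower (median 0.67), all 6 kept their call whichever library was left out, and 10 were higher without ICH+PTE replicate 1. Pecam1 had 3.25, 3.3 and 3 in sham and 8.22, 11.9 and 7.97 in ICH+PTE (1.40 ± 0.16, adjusted p 0.00163). The junction cadherin Cdh5 rose by 1.33 ± 0.18 (adjusted p 0.00278) and the glucose transporter Slc2a1 by 1.13 ± 0.15 (adjusted p 0.00262), while the tight junction gene Cldn5 was not called (0.73 ± 0.25, adjusted p 0.0747). Of 12 tested mural cell and fibroblast genes 6 were higher, among them Tagln, a smooth muscle actin-binding protein (2.75 ± 0.37, adjusted p 0.00292), and Dcn, the proteoglycan decorin of fibroblasts (2.03 ± 0.14, adjusted p 0.000363). Among these 6, 2 were under 1 in every sham library and were tested only through ICH+PTE. Of 15 tested matrix genes 9 were higher and none was lower (median 0.74). Mmp3 and Mmp19, both higher, and Fbln2, not called, were under 1 in every sham library and were tested only through ICH+PTE. Mmp3, stromelysin, had 0, 0.198 and 0.0297 in sham and 2.63, 3.41 and 2.69 in ICH+PTE (2.57 ± 0.21, adjusted p 0.000573). Tnc, tenascin C of glial scars, rose by 1.89 ± 0.20 (adjusted p 0.00117) and Col4a1, a basement membrane collagen, by 1.48 ± 0.12 (adjusted p 0.000573).

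Of 17 glycolytic genes 3 were lower, Eno1, Eno2 and Ldhb, none was higher and 14 had groups that did not overlap (median -0.28). Of 24 nuclear-encoded oxidative phosphorylation genes 2 were lower, none was higher and 9 did not overlap (median -0.12). Over all genes 9.39% were lower, 8.2% were higher and 38.6% did not overlap. Summed glycolytic FPKM was 2130, 2052 and 2025 in sham, 2287, 2297 and 2275 in ICH and 1767, 1707 and 1674 in ICH+PTE. With TPM scaling, under which the median of all genes was -0.18, 9 were lower in each list, and with no filter on low values none was. Neither list had a fall left without sham replicate 1, 2 or 3 or ICH+PTE replicate 3. Of 13 mitochondrially encoded transcripts 4 were higher (median 0.51), but with quantile normalization the median was -0.01 and none of these 4 calls was kept. None was higher without sham replicate 1, 2 or 3, and 1 was without ICH+PTE replicate 1 or 2. In the clock, Arntl, which encodes BMAL1, fell from 5.39 ± 0.237 to 3.06 ± 0.45 (-0.73 ± 0.13, adjusted p 0.00908), with a mean in ICH of 2.5 ± 0.254. Of 16 clock genes 3 were lower and 1 higher. Only the call of Arntl was kept whichever library was left out, while the falls of Per2 and Npas2 and the rise of Bhlhe40 were not. Of 14 genes of mitochondrial dynamics and biogenesis 1 was higher and 1 lower (median -0.06), against 8.2% higher and 9.39% lower of all genes. Mfn1, a mitofusin of the outer mitochondrial membrane, rose from 13.5 ± 0.428 to 20.3 ± 0.906 (0.57 ± 0.10, adjusted p 0.00721), and Mfn2, the other mitofusin, fell by 0.44 on the log2 scale (adjusted p 0.0186), a call lost without sham replicate 1, 2 or 3 or ICH+PTE replicate 2. Of 14 tested apoptosis and p53 genes 7 were higher and 1 lower, Bcl2, whose call was lost whichever library was left out. Between 2 and 4 were higher without sham replicate 1 (3), 2 (2) or 3 (4) or ICH+PTE replicate 2 (4). Among the 7, 1 was under 1 in every sham library and was tested only through ICH+PTE. The death receptor Fas rose by 1.42 ± 0.23 (adjusted p 0.00592). Of 10 hypoxia targets 3 were higher and 1 was lower, with none lower when any 1 sham library was left out and 2 lower without ICH+PTE replicate 3. Among them Adm, the vasodilator peptide adrenomedullin, tested only through ICH+PTE, rose from 0.518 ± 0.158 to 3.88 ± 0.352 (2.11 ± 0.18, adjusted p 0.000573). Of 11 tested cell cycle genes 1 was higher, and 7 were higher without ICH+PTE replicate 1, 0 without any 1 sham library or ICH+PTE replicate 2.

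Several of the largest falls are genes best known from other organs. Mup7, a major urinary protein made mainly by liver, had 6.37, 15.4 and 18.1 in sham, 7.54, 9.43 and 9.32 in ICH and 0, 0 and 0.61 in ICH+PTE (-4.28 ± 0.43, adjusted p 0.000953), and Mup12 moved alike (-4.14 ± 0.43, adjusted p 0.00104). Of 21 Mup genes 7 were tested and all 7 were lower. Mup7, Mup12 and Mup15, as well as Fabp4 and Cox8b, were under 1 in every ICH+PTE library and were tested only because sham was higher. The Mup genes are near-identical copies between which reads can be split, so single values are uncertain. The family's sum was 34.5, 90.9 and 82.5 in sham and 1.39, 2.95 and 16.3 in ICH+PTE. The calls of Mup3, Mup15 and Mup20 each depended on single libraries. Mup3 was lost without sham replicate 2 (0.0802), sham replicate 3 (0.0825), ICH+PTE replicate 1 (0.0635) or ICH+PTE replicate 2 (0.0739), Mup20 without the same libraries (0.0964, 0.0977, 0.0741 and 0.0816), and Mup15 without ICH+PTE replicate 1 (0.0507) or 2 (0.0584). Serpina1e, a liver protease inhibitor with close copies (-3.10 ± 0.38, adjusted p 0.00199), Fabp4, a fatty acid-binding protein of fat and vessels (-2.24 ± 0.40, adjusted p 0.00863), and Cox8b, a muscle and brown fat subunit of cytochrome oxidase (-2.15 ± 0.32, adjusted p 0.00423), were lower too. Liver markers summed to 41.5, 90.5 and 100.1 in sham and 30.1, 32.8 and 83.3 in ICH+PTE, which overlap, and skeletal muscle markers to 6.96, 9.98 and 10.9 in sham and 3.88, 2.59 and 1.99 in ICH+PTE, which do not. Of 9 muscle markers 2 were tested, 1 of them only through sham. Both were lower, and neither kept its call in every leave-one-out fit. The part of RNA from other organs in these falls was not tested.

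A pair of named genes carry limits of annotation. Rps3a2 rose from 2.95 ± 1.12 to 89 ± 20.9 (4.72 ± 0.24, adjusted p 9.52e-05), but it is a near-identical copy of the ribosomal protein gene Rps3a1, which had 296, 245 and 217 in sham and 235, 278 and 227 in ICH+PTE and was not called, so the rise is uncertain. H3c14, one of many histone H3 genes with alike coding sequence, fell by 2.26 on the log2 scale (adjusted p 0.0183), with ICH+PTE values of 0.0035, 0.129 and 1.72. Its call was lost without sham replicate 1 (0.0615), sham replicate 2 (0.0557) or ICH+PTE replicate 2 (0.0553).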

How the data were processed

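Brain RNA of 3 sham and 3 ICH+PTE mice was compared at 72 h, with 3 ICH libraries shown beside them. The authors deposited FPKM values per gene for all 9 libraries, and all FPKM columns were matched to a library by name (0 unmatched). Libraries were selected with oligo(dT) and kept the strand through dUTP, per the labels' protocols. cutadapt 1.9, HISAT2 2.0.4 and StringTie 1.3.4d were used, per the submitters' processing notes. Their genome build was not given in the sources used here. Of the 36160 genes with an identifier in GENCODE M21 (GRCm38), 33103 (91.5%) had the same chromosome, start and end, and coordinates are printed as deposited.

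FPKM values are not counts, so limma 3.58.1 in R 4.3.3 was fitted to log2(FPKM + 0.5) of the 6 libraries, with a mean-variance trend, 4 residual degrees of freedom and Benjamini-Hochberg adjustment over 14447 genes. Differences on this scale understate the change of low genes. Each p-value sets the difference of the groups against the spread between mice of a group, moderated over all genes. Of rows that shared a symbol, 73 further entries were dropped. On simulated data of the same size, 68 of 100 genes changed by 1 (log2) and 96 of 100 changed by 2 were recovered. The simulated noise was independent between genes, so it did not cover shifts of a whole library. Wrong calls among the unchanged genes are not reported here.

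The named genes were, in each direction, the 15 called genes of largest difference among those with a mean of at least 2 in the higher group, no overlap of groups and a symbol that is not a predicted-gene name (972 higher and 1232 lower genes met this), plus members of 55 gene lists. For each list described, the called members with the largest changes and those that define it or were not called were named. Of 767 listed genes 626 were tested, 139 were below the filter and 2 had no entry under their symbol. Some genes are on more than 1 list, so the counts of different lists are not independent. Values of some members are not reported here. The comparison, the lists and the tests were chosen with earlier results of these data known. In total 18 alternatives were tried, 6 of which left out 1 library.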

Additional observations from a re-analysis of the deposited data

How the results depend on the processing

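Leaving out 1 library at a time gave 549 to 1300 higher and 556 to 1347 lower genes, against 1184 and 1357. With no filter on low values, 606 were higher and 674 lower, over 34475 genes in place of 14447. With a filter of FPKM 5 in 3 libraries, over 8066 genes, 665 were higher, and with TPM 2150 were lower. TPM divides each library by its summed FPKM. That sum was 294191, 275339 and 269706 in sham and 313811, 320422 and 288113 in ICH+PTE. The part of these sums in the count of lower genes was not tested. Over all 18 alternatives, 403 of the 1184 rises and 431 of the 1357 falls kept their call. Of 533 values of the 30 largest rises and falls under these alternatives, 504 kept their call, 29 lost it and none changed direction. Depth is unknown, so what it limits could not be given.

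Same-numbered libraries were not treated as pairs. With 3 libraries per group, deviations from the group means depend on each other, so their correlations cannot settle whether the numbers pair samples. The correlation of the deviations of same-numbered libraries from their group means was 0.082, 0.064 and 0.286 for replicates 1, 2 and 3, over 0.1 in 1 of 3 pairs, and not every library correlated best with its own number. With the replicate block 1226 genes were higher and 1337 lower.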

Other observations

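Markers of small intestine, from a list of 24 genes trimmed after the values were seen to the 18 not shared with liver or myeloid cells, summed to 1.06, 1.57 and 1.61 FPKM in sham, 4.79, 5.97 and 3.65 in ICH and 8.59, 4.69 and 9.55 in ICH+PTE. The full list of 24 genes summed to 16.7, 29.3 and 30.4 in sham, 34.5, 45.9 and 39.6 in ICH and 19.3, 17.9 and 34.3 in ICH+PTE, so sham and ICH+PTE overlapped. Of the full list 5 genes were tested, 1 was higher (Anpep) and none was lower (median -0.60). Anpep was under 1 in every sham library and was tested only through ICH+PTE. The trimmed sums rest on genes below the filter and received no test. Erythroid genes summed to 265.8 FPKM in ICH+PTE replicate 3 and to 12.2 to 33.7 in the other 5 libraries compared.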
